A study of Danio rerio with 54 samples.

Results

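The genes described here encode keratins, components of desmosomes and of the epidermal cell envelope, the epithelial adhesion molecule Epcam and the ictacalcins, which are S100 family proteins of fish skin. They were chosen by symbol, as rows beginning with krt and a digit, krt1-, cyt1, evpl, pkp1 to pkp3, jup, dsc2l, dsg2, epcam or icn, together with ppl, dspa and dspb. A total of 38 symbols in the table matched, and 36 of them reached at least 1 TPM (transcript abundance corrected for length and scaled to a fixed total per library) in all 3 samples of at least 1 group, against 25387 of the 30097 gene IDs in the whole table. The symbols krt95 and krt98 stayed below that limit. Of the 36 expressed genes, 16 are skin or other keratins, 4 are simple epithelial keratins (krt8, krt18a.1, krt18a.2, krt18b), 2 are desmosomal cadherins, 7 are armadillo plaque proteins, 4 are plakins, and the rest are epcam, icn and icn2.

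RNA was measured in whole AB strain zebrafish larvae, 3 samples for each of 18 groups, 54 in all. Untreated controls (ctrl) were kept at 28 °C and collected at 96, 97, 98, 102, 108 and 132 hpf (hours post fertilization). The lc larvae were moved to 10 °C at 96 hpf for 1, 2, 6, 12 or 24 h, and the re larvae spent 12 h at 10 °C and then 1, 2, 6, 12 or 24 h at 28 °C. The er groups were sorted by morphology and swimming ability after 24 h at 10 °C and 24 h at 28 °C. They are abnormal (er_ab) and normal (er_nor) survivors, 144 hpf old by calculation. Dead fish were removed at the end of each treatment. Larvae were inert at 10 °C, and the paper states that survival was hard to judge directly after the cold. The lc samples may therefore include larvae that would have died later, whereas the er groups were sorted after recovery. The 54 samples include no untreated controls of the age of lc_24 h, re_1 h to re_12 h or the er groups.

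Keratins are the intermediate filaments of epithelial cells and assemble as pairs of a type I and a type II protein. At desmosomes the cadherins desmocollin and desmoglein join neighbouring cells, and plakoglobin, the plakophilins and desmoplakin tie them to the keratin filaments inside. Envoplakin and periplakin are related plakins that line the membrane of surface cells. The larval skin of zebrafish has an outer periderm over a basal layer, while Krt8 and Krt18 are the filament pair of simple epithelia. Whole larvae also contain gut, kidney and other epithelia, and in such bulk samples fewer cells of a type cannot be told apart from less RNA per cell.

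TPM is a share of each library, in columns that summed to between 998493 and 999530. The number of reads behind a value is unknown, and strong changes elsewhere in the library shift every share. Scale factors by the median of ratios ran from 0.852 to 1.08, no 2 samples were identical, and samples of a group correlated at 0.972 to 0.981. The methods call the samples biological replicates, but their clutches and dishes are not stated, and p-values therefore cover only the spread among these samples. A gene was called when limma gave a 1.5-fold or larger difference and a p of 0.05 or less after Benjamini-Hochberg adjustment over all 25387 expressed genes. Log2 fold changes are on the scale of log2(TPM + 1), which understates the change of genes at a few TPM.

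The 36 genes together made up 1.41% of the library at ctrl_96 hpf. The type II keratin krt4 stood first with 2670 ± 344 TPM (mean ± SD, n = 3), followed by the type I keratins cyt1 with 2516 ± 237 TPM and cyt1l with 1759 ± 169 TPM and by the type II keratin krt5 with 1525 ± 85.0 TPM. At the IDs used, krt4 and cyt1 did not differ beyond their spread. A second expressed ID carries the symbol krt4, and the ID used holds 63.1% of the symbol's TPM over all samples, whereas cyt1 has 1 ID. Ranks and shares here are therefore those of the IDs used. These 4 genes held 60.3% of the summed TPM of all 36 genes. Krt91 at 1289 TPM, icn at 1057 TPM, icn2 at 610 TPM and krt92 at 387 TPM came next, and krt8, at 372 TPM, was the most abundant simple epithelial keratin. Plaque genes were far lower, with 97.7 TPM for plakoglobin jupa, 25.9 TPM for desmoplakin dspa and 2.06 TPM for plakophilin pkp2.

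Across the 18 groups the summed level was highest at lc_12 h, 16605 ± 780 TPM, and lowest in er_ab, 10479 ± 302 TPM. In the heat map of all 36 genes the cold groups stay close to ctrl_96 hpf, while the early re groups and both er groups split the genes into members above and members below it.

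**Figure D1:**
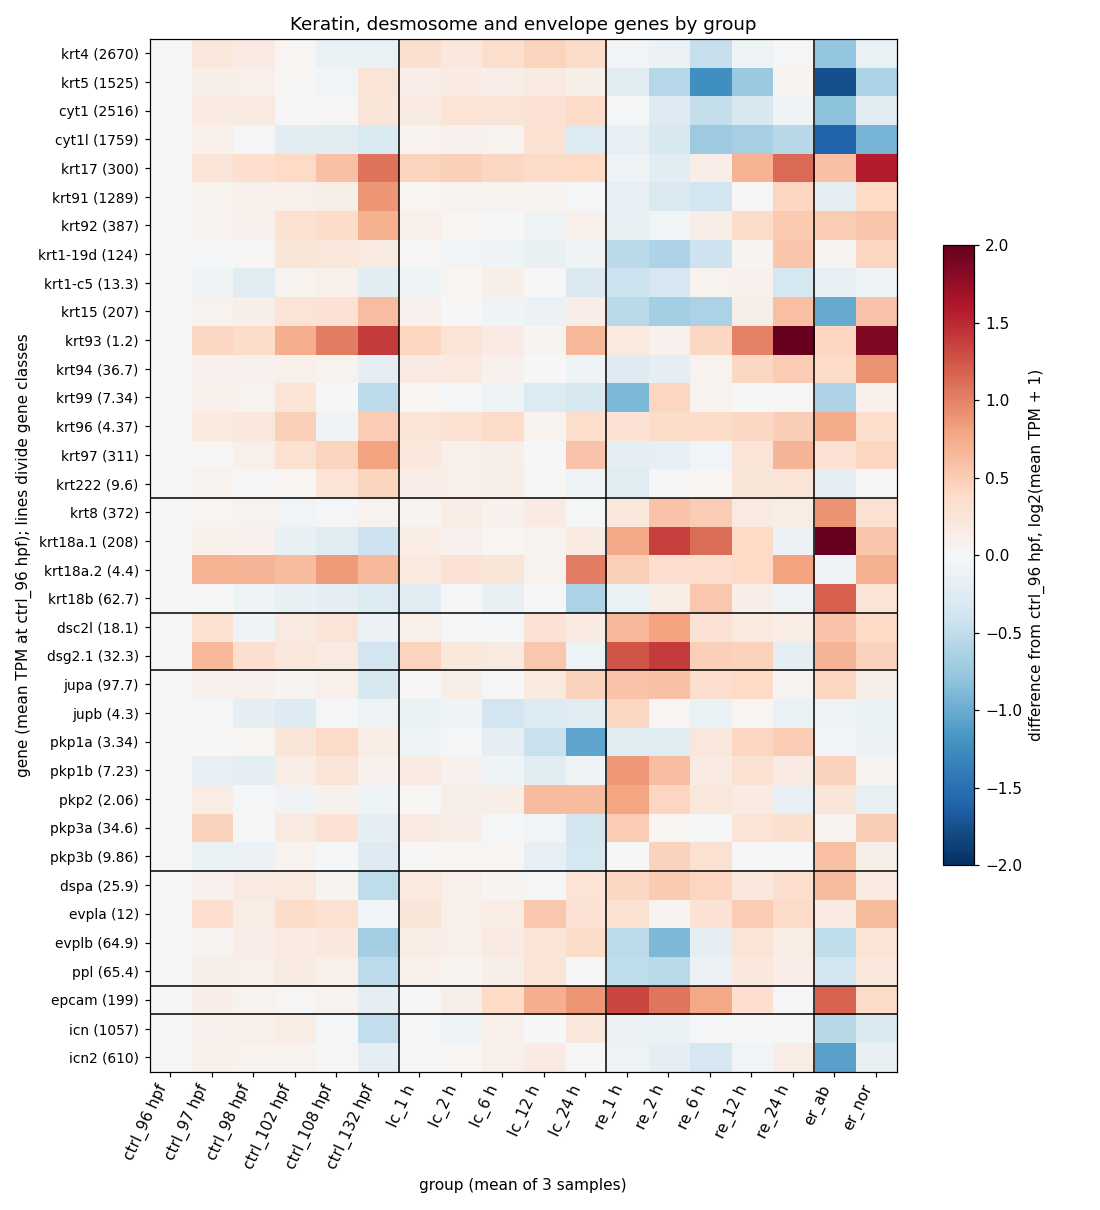
Difference of each group from ctrl_96 hpf in log2(mean TPM + 1), for 36 genes (rows, with their mean TPM at ctrl_96 hpf) and 18 groups (columns, means of 3 samples), with colours ending at -2 and 2. Red is higher and blue lower than ctrl_96 hpf. Krt5 is lower and krt18a.1 higher at re_1 h, re_2 h, re_6 h and re_12 h and in both er_ab and er_nor.

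In untreated larvae the members that rose by 132 hpf were keratins. The type I keratins krt91, krt92, krt17 and krt15 rose, as did krt97, krt93 and krt18a.2, while the envoplakin gene evplb fell. Against ctrl_96 hpf, 7 of 36 genes were called higher, where 4.13% of all genes were, and 1 was called lower, where 8.28% were. The median log2 fold change of the 36 genes was -0.12 and that of all genes -0.09. After rescaling by the median of ratios 8 were higher and 0 lower, with 5.77% and 5.4% of all genes. Markers of other tissues moved over the same interval. All 5 exocrine pancreas genes were higher (summed level 2863 to 3644 TPM at ctrl_96 hpf and 11080 to 14033 TPM at ctrl_132 hpf), and 2 of 3 mucous cell genes were lower (mean summed level 62.4 against 22.7 TPM). Their part in the keratin values was not tested.

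Krt91 measured 1337, 1239 and 1290 TPM at ctrl_96 hpf and 2254, 2338 and 2513 TPM at ctrl_132 hpf, a log2 fold change of 0.88 (SE 0.04, limma adjusted p = 1.27e-19). All samples of the older group lay above those of the younger. Krt17, another type I keratin, went from 345, 293 and 262 TPM to 634, 602 and 688 TPM, a log2 fold change of 1.1 (SE 0.10, limma adjusted p = 1.2e-11). Krt92 moved from 387 ± 3.36 to 635 ± 18.8 TPM (log2 fold change 0.71), krt97 from 311 ± 16.9 to 546 ± 13.3 TPM (0.81) and krt15 from 207 ± 3.65 to 318 ± 16.3 TPM (0.61). Krt15 dropped below the fold threshold, at 0.57, without ctrl_132 hpf replicate 3, and krt18a.2, at 0.66, stood at 0.49 when the IDs of the symbol were summed and at 0.55 without ctrl_96 hpf replicate 1. Krt93, named after its values had been seen because it lies below 5 TPM here, went from 1.20 ± 0.229 to 4.81 ± 0.560 TPM and showed the largest log2 fold change of the 36 genes, 1.40 (SE 0.17, limma adjusted p = 1.21e-08).

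Evplb fell from 64.5, 68.3 and 61.9 TPM to 38.8, 41.1 and 39.7 TPM, a log2 fold change of -0.69 (SE 0.05, limma adjusted p = 6.81e-14). The groups did not overlap, but after rescaling the value was -0.56, below the fold threshold. Its partner periplakin ppl went from 65.4 ± 4.75 to 45.3 ± 1.73 TPM, desmoplakin dspa from 25.9 ± 3.29 to 17.8 ± 0.492 TPM and icn from 1057 ± 22.7 to 748 ± 114 TPM, all of them short of the fold of 1.5.

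At earlier ages few genes were called. At 102 hpf 2 were higher (krt93 and krt18a.2, background 0.993%) and at 108 hpf 3 were higher (these and krt17, background 1.87%), with 0 lower against 0.374% and 0.626% of all genes. At 108 hpf krt17, at 0.60, lost its call after rescaling (0.57) and without ctrl_96 hpf replicate 2 (0.58), ctrl_96 hpf replicate 3 (0.50) or ctrl_108 hpf replicate 1 (0.58). The count at 102 hpf was 1 without ctrl_96 hpf replicate 1 or without ctrl_102 hpf replicate 2 or 3. At 97 and 98 hpf limma called 0, where 0.173% and 0.134% of all genes were higher and 0.067% and 0.0709% lower. At an unadjusted p under 0.05, 9 were higher and 0 lower at 97 hpf, with 5.76% and 5.29% of all genes. At 98 hpf 8 were higher and 2 lower at that limit, with 6.33% and 8.1% of all genes. Leaving out ctrl_96 hpf replicate 2 gave 1 higher at both ages, and leaving out ctrl_98 hpf replicate 2 gave 1 higher at 98 hpf.

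**Figure D2:**
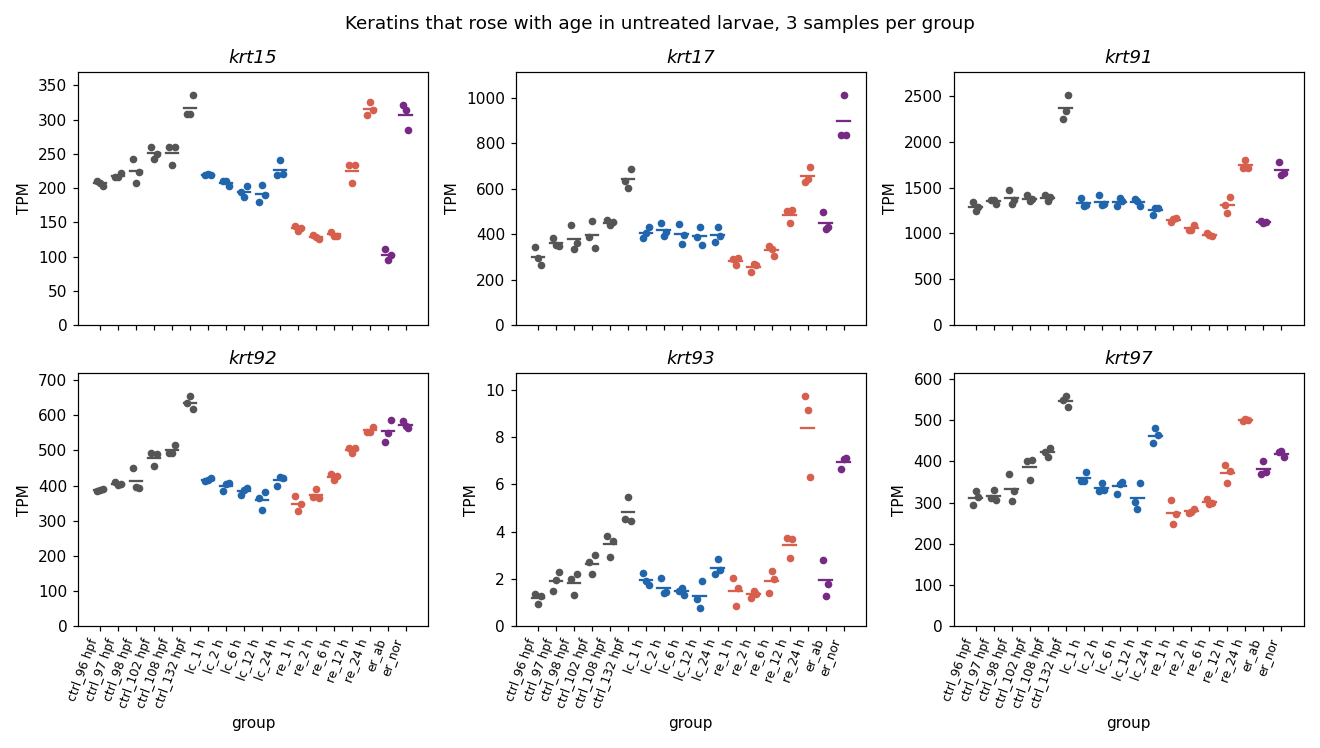
TPM of krt15, krt17, krt91, krt92, krt93 and krt97 in 18 groups; points are samples, bars are means of 3, and colours mark ctrl (grey), lc (blue), re (red) and er (purple). All 6 are higher at ctrl_132 hpf than at ctrl_96 hpf, and krt15 is the lowest of all groups in er_ab, at 102 TPM.

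During the cold most of these genes kept within a fold of 1.5 of ctrl_96 hpf, and the clearest rise was that of epcam. After 24 h epcam, pkp2, krt18a.2 and krt93 were called higher and pkp1a and krt18b lower. Thus 4 of 36 genes were higher, where 9.3% of all genes were, and 2 lower, where 24.3% were. The median log2 fold change was 0.11, against -0.23 over all genes. Rescaling by the median of ratios moved the median of all genes to -0.03 and that of the 36 genes to 0.37, and then 11 were higher and 1 lower, with 14.7% and 14.8% of all genes. The genes added at that scaling were cyt1 (0.64), krt4 (0.63), krt17 (0.66), krt97 (0.83), krt96 (0.60), jupa (0.72) and evplb (0.62).

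Epcam, which joins epithelial cells and modulates their cadherin contacts, measured 214, 189 and 193 TPM at ctrl_96 hpf, 317, 320 and 347 TPM at lc_12 h and 357, 375 and 373 TPM at lc_24 h. The log2 fold change was 0.72 (SE 0.06, limma adjusted p = 5.47e-13) at 12 h and 0.89 (SE 0.06, limma adjusted p = 4.32e-16) at 24 h. No lc_12 h or lc_24 h sample overlapped with ctrl_96 hpf, and at lc_6 h the mean already stood at 263 ± 7.42 TPM, a log2 fold change of 0.40 that missed the fold threshold. A second, less abundant ID carries the symbol epcam, so that reads may be split between them.

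Among the plakophilins, which link desmosomal cadherins to desmoplakin, pkp1a and pkp2 moved in opposite directions. Pkp1a fell from 3.57, 2.89 and 3.55 TPM at ctrl_96 hpf to 1.24, 1.11 and 0.889 TPM at lc_24 h, a log2 fold change of -1.06 (SE 0.15, limma adjusted p = 5.17e-08). Pkp2 rose from 1.94, 2.39 and 1.86 TPM to 3.50, 3.86 and 3.87 TPM, a log2 fold change of 0.63 (SE 0.13, limma adjusted p = 3.16e-05). Neither pair of groups overlapped, but both genes lie at a few TPM. The simple epithelial keratin krt18b went from 60.0, 68.4 and 59.8 to 38.4, 44.6 and 37.0 TPM, a log2 fold change of -0.64, and lost the call after rescaling (-0.39), when the IDs of the symbol were summed (-0.50), without ctrl_96 hpf replicate 2 (-0.58) and without lc_24 h replicate 3 (-0.58). Without either of these samples 1 gene was called lower. Krt93, at 0.66, stood at 0.58 without ctrl_96 hpf replicate 2.

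The most abundant keratins were not called at lc_24 h. Krt5 stood at 1655 ± 19.4 TPM against 1525 ± 85.0 TPM at ctrl_96 hpf, krt91 at 1253 ± 44.4 against 1289 ± 49.0 TPM, and krt8 at 362 ± 13.8 against 372 ± 12.3 TPM. The samples of krt91 and krt8 overlapped between the groups. Cyt1 at 3273 ± 199 TPM and krt4 at 3452 ± 201 TPM lay above ctrl_96 hpf and cyt1l at 1452 ± 101 TPM below it, each within a fold of 1.5.

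After 12 h at 10 °C 2 of 36 genes were higher than at ctrl_96 hpf, epcam and pkp2, and 0 lower, with a background of 5.56% and 9.54%. At an unadjusted p under 0.05, 15 genes were higher and 7 lower, where 14.7% and 35.1% of all genes were. Rescaled, 5 were higher and 0 lower, with 7.4% and 5.95% of all genes. The count of higher genes was 4 without ctrl_96 hpf replicate 1 and 1 without ctrl_96 hpf replicate 3, where pkp2 stood at 0.57. Without lc_12 h replicate 3 pkp2 was at 0.48 and lost its call. At lc_1 h, lc_2 h and lc_6 h limma called 0 in either direction, with backgrounds of 0.228%, 0.654% and 2.65% higher and 0.0551%, 0.0945% and 2.19% lower. At an unadjusted p under 0.05, 11, 6 and 6 genes were higher and 1, 0 and 1 lower. Of all genes 4.28%, 5.62% and 8.71% were higher and 6%, 4.73% and 22.6% lower at that limit. Leaving out ctrl_96 hpf replicate 1 gave 1 higher at lc_2 h.

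All these comparisons share the ctrl_96 hpf samples, so the cold groups were also set against controls of their own age. At lc_12 h against ctrl_108 hpf, epcam was higher (328 ± 16.4 against 209 ± 13.6 TPM) and krt93, pkp1a and krt18a.2 were lower, 1 and 3 of 36 genes with a background of 5.77% and 14.1%. The last of these, krt18a.2, measured 3.49, 4.77 and 5.74 TPM against 8.79 ± 1.17 TPM, whereas it was above ctrl_96 hpf at lc_24 h, with 10.7, 12.1 and 7.14 TPM. Rescaled, 4 genes were higher and 3 lower, with 8.16% and 8.84% of all genes and a median of 0.16 in place of -0.01, and krt4 (0.75), cyt1l (0.71) and pkp2 (0.67) joined epcam. The count of higher genes was 4 without ctrl_108 hpf replicate 1, 3 without lc_12 h replicate 2 and 2 without lc_12 h replicate 3. At lc_1 h, lc_2 h and lc_6 h against 97, 98 and 102 hpf, limma called 0 genes in either direction, where 0.374%, 0.906% and 3.32% of all genes were higher and 0.197%, 0.232% and 3.68% lower. At an unadjusted p under 0.05, 2, 2 and 6 genes were higher and 5, 0 and 12 lower. Of all genes 5.33%, 10% and 13.4% were higher and 7.62%, 7.3% and 23.5% lower at that limit. Leaving out ctrl_102 hpf replicate 2 or lc_6 h replicate 2 gave 1 lower at lc_6 h.

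After 1 and 2 h of rewarming evplb and ppl fell. Of 2 desmosomal cadherins 1 rose, and of 7 armadillo plaque genes 2, where 12.3% and 14.1% of all genes were higher. Higher calls among the 36 genes together were near those shares. Abundant skin keratins were called lower from re_2 h on, and krt5 was no longer called at re_24 h. All re groups were set against the same lc_12 h samples. At re_1 h, dsg2.1, pkp1b, jupb, epcam and krt18a.1 were called higher and evplb, ppl and krt99 lower, 5 and 3 of 36 genes with a background of 12.3% and 4.55%. At re_2 h 5 were higher and 5 lower, with 14.1% and 6.55% of all genes. The median log2 fold change was -0.12 at re_1 h and 0.00 at re_2 h, against 0.04 and 0.08 over all genes. Without lc_12 h replicate 2 or re_1 h replicate 3, krt99 stood at -0.55 or -0.54 and lost its call at re_1 h. At re_2 h krt99 was called higher than lc_12 h instead (0.62 after rescaling). Its mean was 3.47 TPM at re_1 h and 10.3 TPM at re_2 h, its lowest and highest of all groups. Rescaled, the counts were 4 higher and 4 lower at re_1 h (background 9.89% and 6.29%) and 4 higher and 10 lower at re_2 h (10.8% and 9%), where krt4, cyt1, krt15, krt1-19d and evpla joined the lower genes and the median was -0.11.

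Evplb measured 78.7, 76.1 and 78.6 TPM at lc_12 h, 48.0, 41.1 and 45.6 TPM at re_1 h, 34.9, 31.8 and 35.8 TPM at re_2 h and 58.4, 57.7 and 53.6 TPM at re_6 h. The fall at re_2 h was -1.17 on the log2 scale (SE 0.05, limma adjusted p = 7.24e-21). Neither re_1 h nor re_2 h overlapped with lc_12 h, and at re_12 h, with 80.2, 72.0 and 80.0 TPM, the samples overlapped with lc_12 h again. Periplakin, which pairs with envoplakin, took the same course, from 78.5 ± 3.11 TPM before rewarming to 45.6 ± 1.79 TPM after 1 h and 44.9 ± 2.01 TPM after 2 h (log2 fold change -0.79, SE 0.06, limma adjusted p = 1.55e-13) and back to 75.9 TPM at re_12 h. The other envoplakin gene, evpla, was lower in level, 12.5 against 17.8 TPM at re_2 h, and was not called.

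Among the desmosomal cadherins the desmoglein gene dsg2.1 rose. It measured 47.6, 43.6 and 50.3 TPM at lc_12 h, 70.4, 79.5 and 86.9 TPM at re_1 h and 83.8, 76.8 and 101 TPM at re_2 h, with log2 fold changes of 0.73 (SE 0.22, limma adjusted p = 0.00739) at re_1 h and 0.86 (SE 0.22, limma adjusted p = 0.00134) at re_2 h. The groups did not overlap, although this gene varied more between samples than most of the others. At re_2 h the desmocollin gene dsc2l reached 32.2 ± 2.48 against 22.4 ± 1.16 TPM and desmoplakin dspa 37.6 ± 0.886 against 25.2 ± 1.97 TPM, without overlap but short of the fold threshold (log2 fold changes 0.50 and 0.56).

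Of the 7 armadillo plaque genes, 2 were called higher at each of these times, where 12.3% and 14.1% of all genes were. Plakophilin pkp1b measured 6.70, 5.77 and 5.69 TPM at lc_12 h and 12.8, 14.0 and 15.1 TPM at re_1 h, a log2 fold change of 1.09 (SE 0.09, limma adjusted p = 4.86e-13), and at re_2 h it was still higher by 0.84. Jupb, a plakoglobin, went from 3.37 ± 0.0478 to 6.05 ± 0.451 TPM at re_1 h (0.69), and pkp3b from 8.67 ± 0.476 to 13.9 ± 1.36 TPM at re_2 h (0.63). The value of pkp3b was 0.52 after rescaling and 0.55 without re_2 h replicate 2, both short of the threshold. At re_2 h the abundant plakoglobin jupa was at 147 ± 6.86 against 112 ± 3.20 TPM and was not called.

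Epcam reached its highest level at re_1 h, 515, 492 and 496 TPM against 317, 320 and 347 TPM at lc_12 h, and lay at 419, 341, 250 and 195 TPM at re_2 h, re_6 h, re_12 h and re_24 h. The log2 fold change at re_1 h was 0.61 (SE 0.06, limma adjusted p = 4.06e-11), with no overlap, and 0.52 after rescaling, below the fold threshold.

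**Figure D3:**
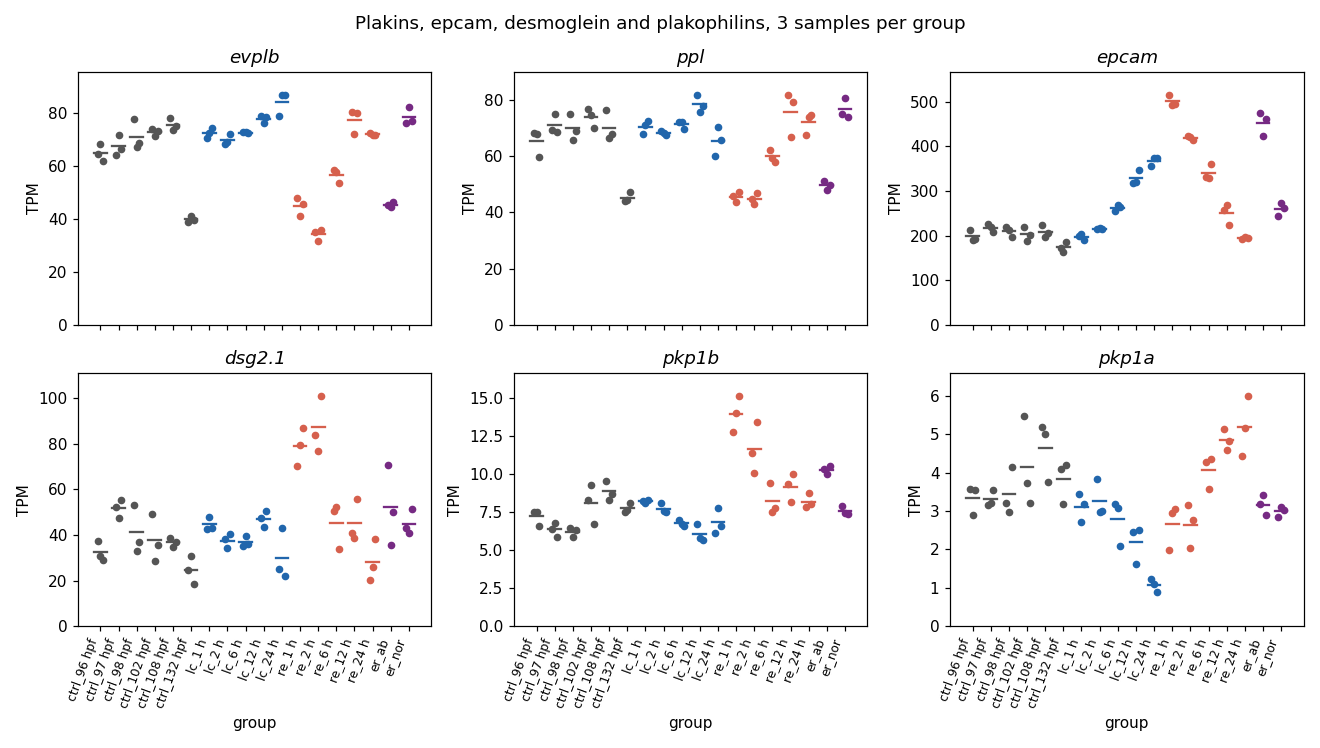
TPM of evplb, ppl, epcam, dsg2.1, pkp1b and pkp1a in 18 groups; points are samples and bars are means of 3. Evplb and ppl reach their lowest re levels at re_2 h, 34.2 and 44.9 TPM, when dsg2.1 is at its highest, 87.2 TPM, and pkp1a is at its lowest at lc_24 h, 1.08 TPM.

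The simple epithelial keratin krt18a.1 was called higher at re_1 h, re_2 h and re_6 h. It measured 211, 211 and 232 TPM at lc_12 h, 357, 337 and 361 TPM at re_1 h, 480, 568 and 557 TPM at re_2 h and 456, 434 and 468 TPM at re_6 h. The log2 fold change at re_2 h was 1.29 (SE 0.08, limma adjusted p = 1.88e-16), and all re_1 h, re_2 h and re_6 h samples lay above lc_12 h. That separation was a condition of naming krt18a.1. By re_24 h, with 198, 212 and 164 TPM, the groups overlapped. At re_2 h its type II partner krt8 reached 553 ± 24.9 against 417 ± 24.6 TPM (0.41), and at re_6 h krt18b reached 91.7 ± 3.12 against 63.0 ± 2.00 TPM (0.53), without overlap and short of the fold threshold. A second ID with the symbol krt18a.1, at 41.7 TPM at lc_12 h, was also called higher at re_2 h, with 115 TPM.

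The abundant keratins of the skin were below lc_12 h from the first hour, and more of them passed the threshold with time. Krt4 stood at 2565 ± 227 TPM at re_1 h against 3636 ± 187 TPM (-0.51) and krt5 was at -0.40, neither called. At re_2 h krt5 (-0.74), cyt1l (-0.63) and krt17 were called lower, cyt1l falling to -0.57 without re_2 h replicate 1. The 16 skin and other keratins had a median log2 fold change of -0.35, -0.34 and -0.15 at re_1 h, re_2 h and re_6 h. At re_6 h krt5, cyt1l, krt4 and cyt1 were called lower and krt18a.1 and pkp1a higher, 4 and 2 of 36 genes with a background of 5.24% and 16.6%. Krt5 measured 1719, 1705 and 1756 TPM at lc_12 h, 1340, 1283 and 1311 TPM at re_1 h, 1021, 1017 and 1056 TPM at re_2 h and 696, 692 and 574 TPM at re_6 h. The log2 fold change at re_6 h was -1.41 (SE 0.07, limma adjusted p = 1.81e-19). No re sample at these times reached the lc_12 h level. Krt5 then stood at 956, 782 and 983 TPM at re_12 h and at 1613, 1510 and 1610 TPM at re_24 h, where it was no longer called (log2 fold change -0.13).

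Krt4 fell from 3848, 3496 and 3562 TPM to 2013, 1870 and 1942 TPM at re_6 h (-0.90, SE 0.10, limma adjusted p = 3.57e-10). The type I keratins cyt1l, from 2179 ± 94.3 to 1058 ± 146 TPM (-1.05), and cyt1, from 3071 ± 345 to 1805 ± 130 TPM (-0.76), fell with it. In none of these genes did the groups overlap. After rescaling 8 genes were lower and 1 higher at re_6 h, with 8.16% and 10.3% of all genes, and evplb, icn2, krt15 and krt91 were added, while the median of the 36 genes went from 0.02 to -0.16. Without lc_12 h replicate 2 the count of higher genes was 1, since pkp1a then stood at 0.54.

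The RefSeq annotation (assembly GRCz12tu, used for gene order only) lists krt92, cyt1l, cyt1, krt17 and krt91 in this order on chromosome 19. Only the genes chosen here were looked up, so others may lie between them. The levels of these keratins took different courses. At re_6 h, when cyt1 and cyt1l had fallen, krt92 was at 425 ± 8.85 TPM, compared with 359 ± 25.8 TPM before rewarming (0.25 on the log2 scale, not called). Krt17 went from 392 ± 39.8 to 255 ± 18.4 TPM at re_2 h (-0.61, called) and to 485 TPM at re_12 h. Without lc_12 h replicate 2 its value at re_2 h was -0.54, and without re_2 h replicate 1 it was -0.55.

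**Figure D4:**
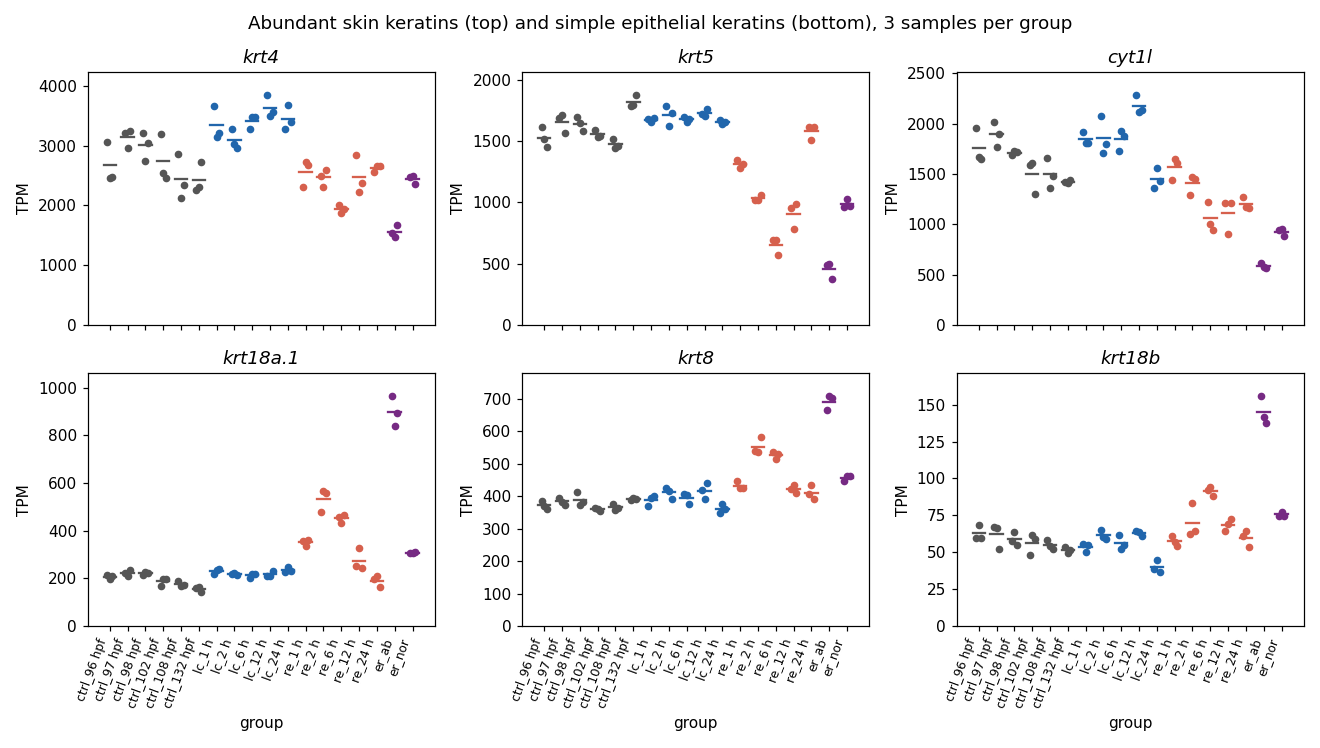
TPM of the skin keratins krt4, krt5 and cyt1l (top) and the simple epithelial keratins krt18a.1, krt8 and krt18b (bottom) in 18 groups; points are samples, bars are means of 3, and axes start at 0. Krt5 falls from 1727 TPM after 12 h of cold to 654 TPM at re_6 h while krt18a.1 is at 452 TPM, and in er_ab krt18a.1 reaches 899 TPM against 452 TPM for krt5.

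At re_12 h against lc_12 h cyt1l, krt5 and cyt1 were lower and pkp1a and krt93 higher, 3 and 2 of 36 genes with a background of 5.5% and 15.8%, and rescaling gave 5 and 2 (8.09% and 9.62%) and a median of -0.01 in place of 0.17. Cyt1 lost its call without lc_12 h replicate 1 (-0.52) or re_12 h replicate 2 (-0.48). At re_24 h 8 were higher and 4 lower, with 13% and 7.15% of all genes, and the median log2 fold change was 0.08 against 0.10. Higher were the keratins krt15 (316 against 191 TPM), krt17 (656 against 392 TPM), krt97 (500 against 312 TPM), krt92, krt1-19d, krt93 and krt18a.2, and pkp1a. Lower were cyt1l (1202 ± 57.2 against 2179 ± 94.3 TPM), epcam, pkp2 and dsg2.1. Dsg2.1, at 20.4, 26.0 and 38.1 TPM, lost the call without re_24 h replicate 1 (-0.57), and krt92, at 0.63, lost it after rescaling (0.56) and without lc_12 h replicate 2 (0.58). The re_24 h larvae were 132 hpf old and the lc_12 h larvae 108 hpf, and the part of this age difference was not tested. Of the keratins higher at re_24 h, all but krt1-19d were also called higher at ctrl_132 hpf than at ctrl_96 hpf. Krt15 was at 318 TPM and krt97 at 546 TPM in ctrl_132 hpf. Against ctrl_132 hpf only krt93 of these keratins was called.

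Rewarmed larvae at re_12 h and larvae still cold at lc_24 h have the same age. In this comparison 4 genes were higher (pkp1a, krt18b, pkp3a and dsg2.1) and 3 lower (krt5, cyt1 and krt18a.2), with a background of 28.2% and 7.86%. The median log2 fold change of 0.16 lay below that of all genes, 0.30. After rescaling, which took the share of all genes to 16.3% and 13.6%, 1 gene was higher and 8 were lower, with epcam (-0.86), krt4 (-0.78), cyt1l (-0.70), pkp2 (-0.70) and krt97 (-0.61) added, and the median turned to -0.14. Dsg2.1 (0.32), krt18b (0.47) and pkp3a (0.34) lost their calls at that scaling. Pkp1a measured 5.13, 4.59 and 4.82 TPM against 1.24, 1.11 and 0.889 TPM (1.49, SE 0.15, limma adjusted p = 1.48e-11), without overlap. The samples of dsg2.1 and of krt18a.2 overlapped between these groups. The call of dsg2.1 was also lost in a fit of the 2 groups alone (adjusted p = 0.0855 in limma) and without lc_24 h replicate 1 (0.52), lc_24 h replicate 3 (0.42) or re_12 h replicate 3 (0.45), and that of pkp3a without re_12 h replicate 1 (0.55). The call of krt18a.2 was lost without any 1 of lc_24 h replicate 1, lc_24 h replicate 2 or re_12 h replicate 2 (values of -0.47 to -0.55), and that of cyt1 without re_12 h replicate 2 (-0.57).

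Against untreated larvae of the same age, ctrl_132 hpf, the re_24 h larvae had higher levels of 3 of the 4 plakins and of 2 keratins. Dspa, evplb, krt94, ppl and krt93 were called higher, 5 of 36 genes with a background of 4.75%, and 0 were lower, with 1.34%. At an unadjusted p under 0.05, 18 were higher and 6 lower, where 23.5% and 10% of all genes were. The median log2 fold change was 0.17, against 0.05 over all genes. Desmoplakin dspa measured 32.9, 32.3 and 33.2 TPM against 17.7, 17.4 and 18.4 TPM (0.84, SE 0.08, limma adjusted p = 3.86e-11), and evplb 72.5, 71.5 and 71.6 TPM against 38.8, 41.1 and 39.7 TPM (0.84, SE 0.05, limma adjusted p = 1.01e-15). The groups did not overlap. Ppl stood at 72.1 ± 3.89 against 45.3 ± 1.73 TPM and krt94 at 52.3 ± 3.76 against 32.2 ± 2.43 TPM, whereas krt91 was at 1741 ± 51.0 against 2368 ± 132 TPM, a log2 fold change of -0.44 that missed the fold threshold. Krt93 fell to 0.57 without re_24 h replicate 1. The summed level of the 4 plakins was 193 TPM at re_24 h, near the 199 TPM at lc_12 h, and 0 plakins were called between these groups. In untreated larvae it was 168 TPM at ctrl_96 hpf and 114 TPM at ctrl_132 hpf.

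The comparison of abnormal with normal survivors held the most calls, 17 of 36 genes. In er_ab the skin keratins, ppl, evplb and icn2 were lower and the simple epithelial keratins krt18a.1, krt18b and krt8 and epcam were higher. A total of 13 of 36 genes were called lower, where 4.74% of all genes were, and 4 higher, where 5.58% were, with a median log2 fold change of -0.24 against -0.02 over all genes. Rescaling gave 12 lower and 4 higher, with 4.39% and 5.92% of all genes. Of the 16 skin and other keratins 9 were lower and 0 higher, and of the 4 simple epithelial keratins 3 were higher and 1 lower. At an unadjusted p under 0.05, 20 genes were lower and 11 higher, where 22.8% and 20% of all genes were. The bars of abnormal against normal survivors show the order of all 36 genes.

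Krt15, a type I keratin, measured 111, 94.9 and 102 TPM in er_ab and 322, 314 and 285 TPM in er_nor, a log2 fold change of -1.57 (SE 0.06, limma adjusted p = 8.76e-24). Krt5 measured 492, 493 and 373 TPM against 960, 1024 and 967 TPM (-1.13, SE 0.07, limma adjusted p = 3.11e-16), and krt17 498, 423 and 430 TPM against 839, 1014 and 839 TPM (-0.99, SE 0.10, limma adjusted p = 3.27e-10). Every er_ab sample lay below every er_nor sample in all of these, which for krt15 and krt17 was a condition of being named. Krt93 (1.96 against 6.95 TPM), krt18a.2 (4.03 against 7.86 TPM) and krt99 (4.46 against 7.90 TPM) were also lower.

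Other abundant skin keratins were lower by less than krt5. Cyt1l stood at 584 ± 24.8 against 927 ± 40.6 TPM (-0.67), krt4 at 1562 ± 105 against 2444 ± 74.8 TPM (-0.65), cyt1 at 1429 ± 102 against 2181 ± 95.6 TPM (-0.61) and krt91 at 1125 ± 8.54 against 1691 ± 79.4 TPM (-0.59). None overlapped, but krt4 was at -0.52 when its IDs were summed, cyt1 at -0.55 without er_ab replicate 2, and krt91 at -0.57 after rescaling, -0.58 without er_ab replicate 2 and -0.55 without er_nor replicate 1. Krt92, listed next to cyt1l among the chosen genes, measured 525, 550 and 586 TPM against 583, 569 and 563 TPM, and these samples overlapped (-0.05, SE 0.05).

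The simple epithelial keratin krt18a.1 measured 964, 840 and 893 TPM in er_ab and 305, 306 and 309 TPM in er_nor, a log2 fold change of 1.55 (SE 0.08, limma adjusted p = 2.13e-18). Krt18b measured 156, 142 and 138 TPM against 74.8, 77.5 and 74.8 TPM (0.93, SE 0.09, limma adjusted p = 1.89e-10), and krt8 665, 708 and 701 TPM against 447, 463 and 463 TPM (0.59, SE 0.04, limma adjusted p = 2.94e-14). No sample overlapped. The call of krt8 was at the threshold and was lost when its IDs were summed (0.55) and without any 1 of er_ab replicate 2, er_ab replicate 3 or er_nor replicate 1 (0.58 in each). Of the second IDs, that of krt18a.1 was called higher too, at 176 against 59.5 TPM, while that of krt18b, at 85.1 against 67.4 TPM, and that of krt8, at 165 against 128 TPM, were not called.

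The ratio of krt18a.1 to krt5 within a sample, chosen after the values had been seen, describes this shift. It was 0.136 ± 0.00733 at ctrl_96 hpf, 0.143 ± 0.00915 at lc_24 h, 0.699 ± 0.102 at re_6 h, 2.02 ± 0.349 in er_ab and 0.312 ± 0.0114 in er_nor. The ratio of krt8 to krt4 was 0.141 ± 0.0132, 0.105 ± 0.00235, 0.272 ± 0.00473, 0.444 ± 0.0328 and 0.187 ± 0.00810 in the same groups. Both ratios were highest in er_ab among all 18 groups.

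Evplb measured 45.4, 44.4 and 46.2 TPM in er_ab and 76.0, 82.2 and 76.8 TPM in er_nor (-0.78, SE 0.05, limma adjusted p = 4.55e-15), and ppl 51.3, 47.8 and 49.9 against 75.1, 80.9 and 74.1 TPM (-0.62, SE 0.06, limma adjusted p = 2.95e-10). Both groups were apart in each gene, and ppl fell to -0.58 without er_nor replicate 2. The summed level of the 4 plakins was 150 TPM in er_ab and 204 TPM in er_nor. It was 196 TPM at lc_24 h and 114 TPM at ctrl_132 hpf, the oldest untreated group, so er_ab lay between er_nor and that group. The part of age in these levels was not tested. Icn2 stood at 285 ± 28.3 against 551 ± 26.9 TPM (-0.95, SE 0.08, limma adjusted p = 2.09e-12), and icn at 717 ± 37.9 against 868 ± 21.0 TPM, a log2 fold change of -0.28 that was not called. Epcam measured 475, 422 and 462 TPM against 244, 272 and 263 TPM (0.80, SE 0.06, limma adjusted p = 5.57e-14).

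The cadherin and plaque genes showed smaller differences, none of which was called. Dspa stood at 40.8 ± 0.868 against 29.5 ± 2.21 TPM (0.46), pkp3b at 15.5 ± 1.13 against 10.7 ± 1.02 TPM (0.49), pkp1b at 10.3 ± 0.290 against 7.56 ± 0.286 TPM (0.40), pkp2 at 2.63 against 1.76 TPM (0.40) and jupa at 132 ± 1.27 against 106 ± 4.52 TPM (0.32), all higher in every er_ab sample. Dsc2l was at 27.3 against 24.1 TPM (0.17), and pkp1a and jupb overlapped between the groups. Pkp3a and evpla went the other way, at 36.5 ± 3.11 against 48.9 ± 2.41 TPM (-0.41) and 13.7 against 19.0 TPM (-0.45). Dsg2.1 varied, with 70.9, 35.4 and 50.2 TPM in er_ab against 42.9, 40.7 and 51.3 TPM in er_nor, and its samples overlapped.

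**Figure D5:**
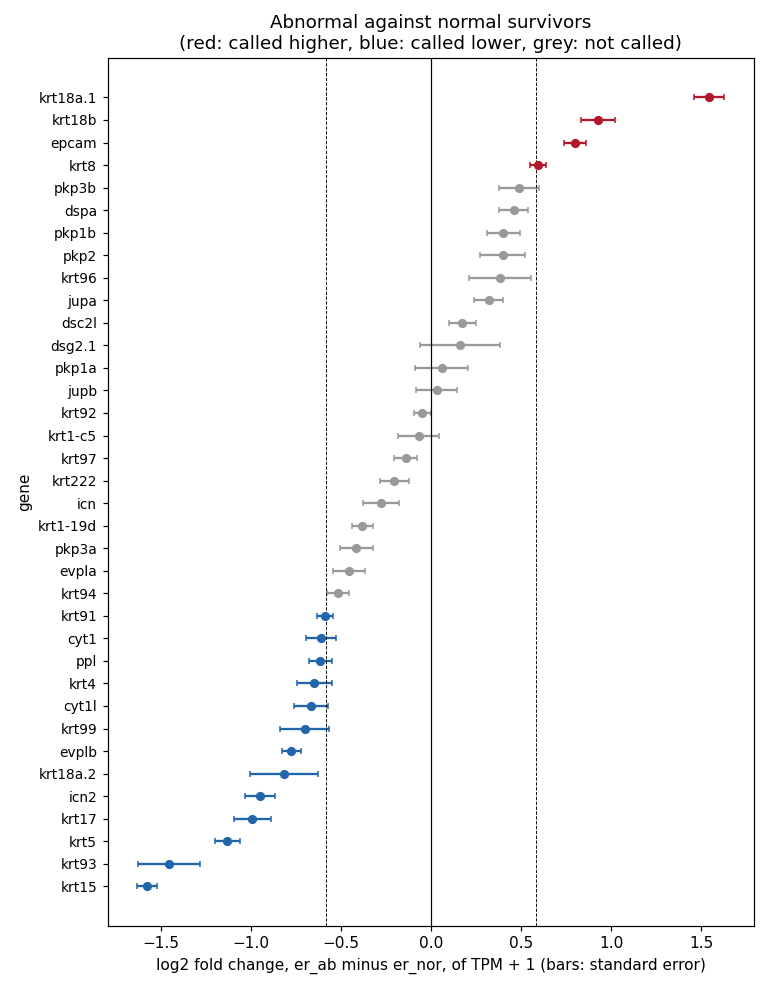
Log2 fold change of TPM + 1, er_ab minus er_nor, for 36 genes in order of size, with the standard error of the fit as bars and dashed lines at a fold of 1.5. The 4 genes called higher (red) run from krt8 (0.59) to krt18a.1 (1.55) and the 13 called lower (blue) from krt91 (-0.59) to krt15 (-1.57).

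Markers of other tissues also differed between the survivors, where 5.58% of all genes were called higher in er_ab and 4.74% lower. All 5 photoreceptor genes were lower in er_ab (summed level 1067 to 1124 against 2472 to 2784 TPM), and 2 of 7 ionocyte genes were higher. Of 5 skeletal muscle genes 0 were called (13088 to 13514 against 13086 to 13489 TPM), likewise 0 of 5 liver genes (5597 to 6135 against 7751 to 7981 TPM), 0 of 5 exocrine pancreas genes (9433 to 9972 against 10431 to 10967 TPM), 0 of 5 lens genes and 0 of 3 mucous cell genes, and 1 of 5 neuron and glia, 1 of 4 erythrocyte and 1 of 4 leukocyte genes were lower. At lc_24 h all 5 exocrine pancreas genes were higher and 3 of 4 leukocyte genes lower than at ctrl_96 hpf, with 9.3% and 24.3% of all genes. At re_6 h all 5 exocrine pancreas genes were higher than at lc_12 h, with 16.6% of all genes. In untreated larvae the summed exocrine pancreas level also rose, from 3263 TPM at ctrl_96 hpf to 8716 TPM at ctrl_108 hpf. The part of any tissue in the keratin values was not tested.

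Both survivor groups were also compared with lc_24 h, the end of their cold. For er_ab 9 genes were lower and 6 higher, with a background of 10.7% and 27.3%, and for er_nor 3 were lower and 7 higher, with 8.61% and 25.9%. The medians were 0.04 and 0.21, against 0.21 and 0.24 over all genes. The comparisons share the lc_24 h samples, which were not sorted by later survival. Krt5, at 1673, 1634 and 1657 TPM at lc_24 h, was lower in both, by a log2 fold change of -1.88 (SE 0.07) in er_ab and -0.75 (SE 0.07) in er_nor, and cyt1l by -1.31 and -0.64. Krt15, at 227 ± 11.9 TPM at lc_24 h, was at 102 TPM in er_ab (-1.14, called) and at 307 TPM in er_nor (0.43, not called). Krt18a.1 was at 236 ± 12.3 TPM at lc_24 h, with 1.92 (called) in er_ab and 0.38 (not called) in er_nor. Krt18b was called higher in both er groups before and after rescaling, with rescaled values of 1.63 in er_ab and 0.68 in er_nor. After rescaling the counts were 10 lower and 5 higher for er_ab (background 16.2% and 20%) and 7 lower and 6 higher for er_nor (13.8% and 17.4%), and the medians turned to -0.17 and -0.01. The dsg2.1 calls against lc_24 h, 0.78 in er_ab and 0.62 in er_nor, rested on groups that overlapped and were lost after rescaling (0.58 and 0.40) and in a fit of only the groups compared.

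Among the regulators of the epidermis the order was different. In the list of 17 epidermal transcription factors 10 were lower and 3 higher at lc_24 h than at ctrl_96 hpf, with 24.3% and 9.3% of all genes. Rescaling by the median of ratios took these shares of all genes to 14.8% and 14.7%. The further lists were not counted at that scaling. The basal keratinocyte regulator tp63 fell from 21.9 ± 2.00 to 5.89 ± 0.572 TPM (-1.73, SE 0.11, limma adjusted p = 8.34e-17), tfap2a fell from 84.3 to 27.1 TPM and elf3 rose from 11.1 to 60.4 TPM. At re_2 h 10 were higher and 3 lower than at lc_12 h (14.1% and 6.55% of all genes), with tp63 at 41.3 ± 4.17 against 8.94 ± 1.26 TPM and the Grainyhead factor grhl3, which acts in epidermal barrier formation, at 13.0 against 0.740 TPM. Between er_ab and er_nor elf3 was higher (29.0 against 18.7 TPM), 0 of the list were lower, and tp63 was not called (log2 fold change 0.24).

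The basal keratin krtt1c19e has a symbol that the rule does not match. It stood at 2582 ± 76.1 TPM at lc_12 h and at 2053 ± 57.1 TPM at lc_24 h, neither of them called against ctrl_96 hpf, and fell to 911 ± 71.5 TPM at re_6 h (-1.50, SE 0.07, limma adjusted p = 9.18e-20 against lc_12 h). In er_ab it was at 272 ± 24.7 TPM against 530 TPM in er_nor (-0.96, SE 0.07, limma adjusted p = 1.23e-13).

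Other junction genes are listed beside these. Of 11 adherens junction genes tested, 1 was higher and 4 lower at lc_24 h than at ctrl_96 hpf, where 9.3% and 24.3% of all genes were. E-cadherin cdh1 rose from 42.4 ± 2.07 to 113 TPM (1.39, SE 0.06) and beta-catenin ctnnb1 fell from 244 to 144 TPM. In er_ab 2 were higher than in er_nor, cdh1 (89.9 against 56.5 TPM) and alpha-catenin ctnna1 (63.5 against 33.7 TPM), and 0 lower, where 5.58% and 4.74% of all genes were. The hemidesmosome collagen gene col17a1a was lower in er_ab, at 80.4 against 129 TPM (-0.67, SE 0.07). It is 1 of 21 hemidesmosome and basement membrane genes, whose summed level was alike in both groups. That level was 419 to 467 TPM in er_ab and 424 to 438 TPM in er_nor. The calls of the other genes of that list are not reported here.

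Of 19 envelope enzyme and annexin genes 3 were higher and 7 lower in er_ab than in er_nor, with 5.58% and 4.74% of all genes. The annexin anxa2a stood at 230 against 109 TPM (1.07, SE 0.07), whereas anxa1c was at 66.5 against 127 TPM and the envelope protein gene scel at 92.2 against 162 TPM. Of 12 S100 genes beside icn and icn2, 2 were higher and 0 lower on the same background, and s100a10b, whose product binds annexin A2, stood at 706 against 306 TPM (1.20, SE 0.07, limma adjusted p = 1.03e-16).

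Over the 18 group means, which share libraries and ages and are given as a description, the levels of cyt1 and krt5 correlated at 0.95, those of evplb and ppl at 0.95 and those of krt18a.1 and krt8 at 0.94. Krt18b and krt5 correlated at -0.89, and krt18a.1 and krt5 also at -0.89.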

How the data were processed

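Whole zebrafish larvae were sampled 3 times in each of 18 groups. The deposited values are TPM, which the authors made by mapping reads to Ensembl cDNA with Salmon 0.13.1 and summing to genes with tximport, and which keep no depth per gene. The authors' own DEGs were called on counts, which were not used here. A linear model with 1 mean for each of 18 groups was fitted to log2(TPM + 1) with limma 3.58.1 (R 4.3.3), using all 54 samples, a mean-variance trend and 36 residual degrees of freedom, for the 25387 gene IDs at 1 TPM or more in all samples of at least 1 group. There were 24 comparisons, and calls needed a fold of 1.5 and an adjusted p of 0.05. In values simulated for lc_24 h against ctrl_96 hpf (25387 genes), 94%, 96%, 100% and 98% of genes changed by 0.8, 1, 2 and 3 on the log2 scale were called, with 4 false calls. Of several IDs with a symbol the one of highest mean TPM was used, and 8 of the 36 genes have more than 1 expressed ID.

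The genes, the further lists and the tests were chosen with earlier results of these data known. Named with values were all desmosome, plakin, epcam and ictacalcin genes, the 6 most abundant keratins and up to 4 genes of each further list. Up to 6 keratins called in each direction per comparison (5 TPM or more, no overlap) were named too. For keratins named only by this last rule, the lack of overlap was a condition of choice and adds no support. The share of all genes without overlap was not counted. Alternatives were pseudocounts of 0.5 and 0.1, no filter, a filter at 5 TPM, scaling by the median of ratios, the compared groups only, no trend, the replicate number as a block, summed IDs, and each replicate left out. No sequences were at hand, so that none are printed and no promoter was searched. Some results of the further lists are not reported here.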

Additional observations from a re-analysis of the deposited data

How the results depend on the processing

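None of the 36 genes changed sign under the alternatives run, in a comparison in which it was called. Genes of the further lists and krtt1c19e were not put through these alternatives. Scaling by the median of ratios turned the sign of the median of the 36 genes at re_2 h, re_6 h and re_12 h against lc_12 h. It also did so at lc_12 h against ctrl_108 hpf, at lc_6 h against ctrl_102 hpf (-0.04 to 0.01), and at re_12 h, er_ab and er_nor against lc_24 h. The balance of higher and lower calls turned with it in several of these comparisons. This scaling gave these counts in place of those on the deposited values: 1 higher at ctrl_98 hpf, 0 lower at ctrl_132 hpf, 5 higher at lc_12 h and 11 higher and 1 lower at lc_24 h (all against ctrl_96 hpf), 4 higher at lc_12 h against ctrl_108 hpf, 10 lower at re_2 h, 1 higher and 8 lower at re_6 h and 5 lower at re_12 h (against lc_12 h), 1 higher and 8 lower at re_12 h against lc_24 h, and 7 lower in er_nor against lc_24 h. A filter at 5 TPM, which drops the lowest genes, gave 1 higher at ctrl_97 hpf and ctrl_98 hpf, 1 higher at lc_12 h and 1 lower at lc_24 h against ctrl_96 hpf, and 1 higher at re_6 h and re_12 h against lc_12 h. Summed IDs gave 1 lower at lc_24 h, and a fit of the compared groups only gave 0 higher at ctrl_102 hpf. A pseudocount of 0.1 gave 2 lower at ctrl_132 hpf, 1 lower at lc_12 h against ctrl_96 hpf, and, like a pseudocount of 0.5, 1 lower at lc_6 h against ctrl_102 hpf and 2 higher at lc_12 h against ctrl_108 hpf. The cause of these shifts was not tested. Leaving out 1 replicate gave 1 to 3 higher at ctrl_102 hpf, 0 to 1 higher at ctrl_97 hpf, ctrl_98 hpf and lc_2 h, 1 to 4 higher at lc_12 h against ctrl_96 hpf and against ctrl_108 hpf, 1 to 2 lower at ctrl_132 hpf and lc_24 h, 0 to 1 lower at lc_6 h against ctrl_102 hpf, 1 to 2 higher at re_6 h, and 11 to 14 lower and 3 to 4 higher in er_ab against er_nor. The replicate numbers do not pair the samples: in 0 of 24 comparisons did all same-numbered pairs correlate over 0.1 (range -0.131 to 0.0835), and the replicate block left 4 higher and 13 lower in er_ab against er_nor and moved no count of members by over 1.5 times. Without counts, precision rests on 3 samples per group, and genes at a few TPM carry the least.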
